A study of Mus musculus with 2 samples.

Results

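The 10 genes described here encode water, urea and sodium transporters: the aquaporins Aqp1, Aqp3, Aqp7, Aqp9 and Aqp11, the urea transporters Slc14a1 and Slc14a2, and the epithelial sodium channel subunits Scnn1a, Scnn1b and Scnn1g. They were taken by name from 21938 protein-coding genes of the GENCODE M21 annotation, and all 10 were found. Accessible chromatin was mapped in urinary bladders of B6CASTF1/J males at 36 days of age by DNase-seq, which reads where DNase I can cut nuclear DNA. Such mice are F1 hybrids of C57BL/6J and CAST/EiJ, and the labels name no treatment; they form 1 group with 2 libraries, replicate 1 and replicate 2. The labels number the animals separately and give both the same donor entry. With 1 group there was no condition to compare, and with 2 libraries no test was made. The values of both libraries are therefore set side by side.

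The bladder stores urine that is rich in urea and differs in salt and osmolality from blood, behind the urothelium, the epithelium of its lumen. Aquaporins conduct water, and the subgroup of aquaglyceroporins, to which Aqp3, Aqp7 and Aqp9 belong, also conducts glycerol. Slc14a1 (UT-B) is known from red cells, vessels and urothelium and Slc14a2 (UT-A) from the kidney medulla, while the epithelial sodium channel, built from alpha, beta and gamma subunits, admits sodium at the apical side of tight epithelia.

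For each gene, peaks were taken from the gene body plus 50 kb on each side. Overlapping peaks of the libraries were merged into sites, and a site counted as shared when both libraries had a peak there. Peak height is the authors' own value of unstated scale, so its rank among all peaks of the same library is given as a percentile. The stricter list of replicate 2 held 47661 peaks against 38674 in replicate 1, and its median height was 1.15 against 1.46, so that 1 height stands at a higher percentile in replicate 2. Over the whole genome 61.7% of 51228 sites were shared. Of the markers of bladder cell types, 9 of 10 urothelial genes had peaks at a start in both libraries, all but Krt5, as did 3 of 8 smooth muscle genes (Myh11, Mylk and Synpo2, but not Acta2, Tagln or Des). In the authors' longer peak list the urothelial count was 10 of 10 and the smooth muscle count 5 of 8, with Acta2 and Des added. Of markers of other cells, 3 of 8 endothelial, 2 of 6 adipocyte, 2 of 6 erythroid, 0 of 6 neutrophil, 0 of 6 hepatocyte and 0 of 7 kidney tubule genes did. In the longer list, 1 neutrophil and 1 kidney tubule gene were added. The share over all protein-coding genes was 56.3% in the stricter list and 61.4% in the longer one. Of these marker lists only the urothelial one was above 56.3%, and smooth muscle and endothelium had the same share (37.5%). In whole tissue, a site open in few cells and a site weakly open in many cannot be told apart.

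The stretches below carry the results that follow. Each is the strongest shared site, by mean percentile, of the class in its name (start, internal, upstream or downstream, leaving out starts of other genes) for the gene named, and not always the strongest of the window. They are printed without untranslated regions, on mm10 and on the strand of the gene, 5′ to 3′. Capitals mark footprints, short protected stretches listed by the authors inside a peak, of either library. The Scnn1g start site (chr7:121734181-121734420, plus strand) was the highest peak at a start of any of the 10 genes. The Scnn1a internal site (chr6:125331061-125331260, plus strand) was the highest peak inside any of them. The Aqp3 start site (chr4:41098184-41098340, minus strand) holds the part of the peak that lies before the start. The Aqp7 upstream site (chr4:41050801-41050960, minus strand), the Aqp11 upstream site (chr7:97748181-97748380, minus strand) and the Scnn1b upstream site (chr7:121840901-121841180, plus strand) show the nearest strong or the sole shared flanking site. The Aqp9 internal site (chr9:71129001-71129173, minus strand) differed most between libraries, and the Aqp1 downstream site (chr6:55392501-55392700, plus strand) holds an exact CTCF match.
Scnn1g start site: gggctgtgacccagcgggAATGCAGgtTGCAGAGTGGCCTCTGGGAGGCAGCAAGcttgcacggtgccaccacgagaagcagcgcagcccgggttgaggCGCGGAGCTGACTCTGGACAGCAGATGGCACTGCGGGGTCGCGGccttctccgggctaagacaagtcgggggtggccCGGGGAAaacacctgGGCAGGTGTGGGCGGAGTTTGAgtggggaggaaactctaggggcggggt
Scnn1a internal site: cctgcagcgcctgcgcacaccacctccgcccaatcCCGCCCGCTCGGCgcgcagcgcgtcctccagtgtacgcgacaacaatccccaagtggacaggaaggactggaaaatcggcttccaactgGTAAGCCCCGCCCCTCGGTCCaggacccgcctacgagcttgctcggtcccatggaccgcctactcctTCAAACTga
Aqp3 start site: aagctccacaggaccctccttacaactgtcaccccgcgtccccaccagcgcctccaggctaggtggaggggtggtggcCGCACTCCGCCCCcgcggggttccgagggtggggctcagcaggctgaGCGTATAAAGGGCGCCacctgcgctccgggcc
Aqp7 upstream site: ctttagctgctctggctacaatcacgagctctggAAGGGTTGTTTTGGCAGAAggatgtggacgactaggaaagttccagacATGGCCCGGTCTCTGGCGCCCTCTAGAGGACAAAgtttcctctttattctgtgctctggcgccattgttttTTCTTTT
Aqp11 upstream site: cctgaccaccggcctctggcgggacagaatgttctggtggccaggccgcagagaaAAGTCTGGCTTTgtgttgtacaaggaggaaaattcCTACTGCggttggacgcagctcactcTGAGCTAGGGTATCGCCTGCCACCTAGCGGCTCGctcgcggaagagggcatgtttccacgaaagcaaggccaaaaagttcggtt
Scnn1b upstream site: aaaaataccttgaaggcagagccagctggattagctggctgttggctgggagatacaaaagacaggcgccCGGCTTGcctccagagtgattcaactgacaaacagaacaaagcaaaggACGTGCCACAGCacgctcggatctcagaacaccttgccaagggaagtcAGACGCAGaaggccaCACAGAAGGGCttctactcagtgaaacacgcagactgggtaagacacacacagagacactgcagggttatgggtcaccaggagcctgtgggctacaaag
Aqp9 internal site: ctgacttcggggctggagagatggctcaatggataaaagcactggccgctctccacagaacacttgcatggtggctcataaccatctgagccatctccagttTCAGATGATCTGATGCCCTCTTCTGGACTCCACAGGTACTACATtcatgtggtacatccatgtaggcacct
Aqp1 downstream site: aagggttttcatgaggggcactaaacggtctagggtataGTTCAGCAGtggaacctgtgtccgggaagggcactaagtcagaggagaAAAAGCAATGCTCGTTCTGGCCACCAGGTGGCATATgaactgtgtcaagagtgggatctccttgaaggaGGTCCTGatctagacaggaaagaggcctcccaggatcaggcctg

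Promoter accessibility divided the genes. A start peak, one within 500 bases of an annotated transcript start, was found in both libraries at 3 of the 10 genes, Aqp3, Aqp11 and Scnn1g, where 56.3% of all protein-coding genes had one. Replicate 1 alone also had one at Scnn1b and replicate 2 alone at Aqp1, so each library had 4. The same 3 genes had the peak at their outermost start, against 50.9% of protein-coding genes. In the authors' longer, less strict peak list a start peak was found in both libraries at 6 of the 10 (Aqp1, Slc14a1 and Scnn1b were added), against 61.4% of protein-coding genes. The share of the 10 genes with a start peak was thus below that of all genes in the stricter list and close to it in the longer list.

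The per-base false discovery rate (FDR) that the authors deposited is listed up to 0.05. Its lowest value within 500 bases of each start was taken, whether or not a peak was called there. The lowest FDR near the Scnn1g start was 7.96e-36 in replicate 1 and 8.51e-49 in replicate 2. Near the outermost start of Aqp11 it was 1.81e-20 and 6.11e-14, and near that of Aqp3 it was 1.48e-07 and 2.70e-09. Aqp1 (0.0267 and 0.00021) and Scnn1b (0.000224 and 0.00168) had listed stretches with weaker values. A listed stretch near the outermost start in both libraries was thus present at 5 of the 10 genes, against 57.1% of protein-coding genes. Scnn1b also had a stretch listed near an internal start farther along the gene (0.00205 in replicate 1 and 0.00307 in replicate 2). At Slc14a1 no stretch was listed at the outermost start, but near the 2 internal starts the lowest FDR was 0.0229 in replicate 1 and 0.00866 in replicate 2. No stretch was listed in either library within 500 bases of any annotated start of Aqp7, Aqp9, Slc14a2 or Scnn1a, which have 4, 10, 6 and 7 starts.

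The 3 genes with a start peak in both libraries were also the 3 whose promoters were rich in CpG. The ratio of observed to expected CpG within 250 bases of the outermost start was 0.682 at Aqp3, 0.696 at Aqp11 and 0.672 at Scnn1g. At the other 7 genes it ran from 0 at Scnn1a, which has no CpG there, through 0.114 at Aqp7, 0.234 at Slc14a1 and at Slc14a2, 0.328 at Aqp1 and 0.407 at Aqp9, to 0.519 at Scnn1b. Of protein-coding genes with a ratio of at least 0.6, 88% carried a start peak in each library, and of those below 25.7% did. Among the 10 genes it was 3 of 3 and 0 of 7. This split was added after the start peaks were known and is a description only.

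**Figure D1:**
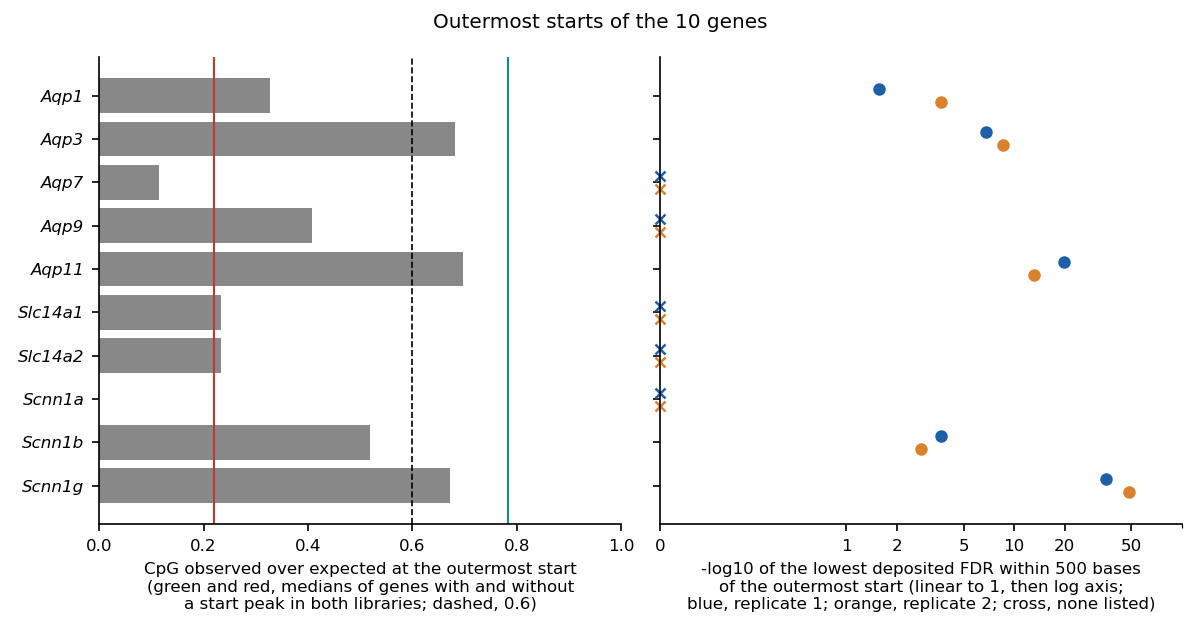
The left panel plots the CpG ratio at the outermost start of each gene, with lines at 0.6 and at the medians of protein-coding genes with (0.784) and without (0.22) a start peak in both libraries. The right panel plots -log10 of the lowest deposited FDR there for replicate 1 (blue) and replicate 2 (orange), with crosses where none was listed: Aqp3, Aqp11 and Scnn1g lie past the dashed line on the left and farthest right on the right.

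Across the 10 windows there were 71 distinct sites, of which 35 (49.3%) were shared, 6 were found in replicate 1 only and 30 in replicate 2 only. Of the sites of a single library, 3 of the 6 and 15 of the 30 overlapped a peak of the longer list of the other library. Shared sites were higher (median height 1.64 in replicate 1 and 1.6 in replicate 2) than those of replicate 1 alone (0.731) or replicate 2 alone (0.826). Of the 35 shared sites, 3 lay at the outermost start of one of the 10 genes, 1 at an internal start, 7 inside the gene, 10 upstream and 3 downstream, and 11 lay at the start of a different gene. Windows that overlap (Aqp3 with Aqp7, Slc14a1 with Slc14a2) share 11 sites, so the genes of each pair are not independent. The windows of Scnn1g and Scnn1b also overlap at their edges, with no site there.

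Heights at the 35 shared sites differed little between libraries. The log2 ratio of replicate 1 over replicate 2 had a median of 0.06 and an SD of 0.31, against 0.08 and 0.32 at all 31612 shared sites. It ran from -0.76 at the Aqp9 internal site to 0.74 at a site within Nol6 at -20.9 kb from Aqp3 (negative distances lie upstream of the outermost start). The plot of heights in both libraries shows the sites of the 10 genes spread through the cloud of all sites. Over all peaks in the 10 windows, shared or not, the median percentile was 54.7 in replicate 1 (43 peaks) and 52.9 in replicate 2 (67 peaks).

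**Figure D2:**
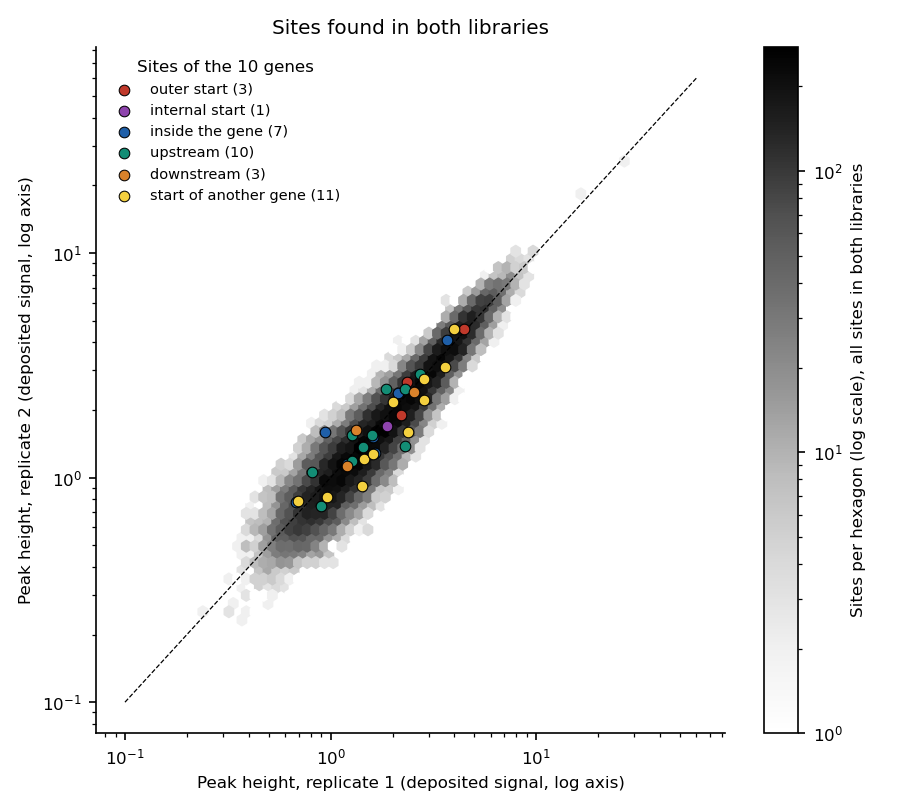
Each point is 1 of the 35 shared sites of the 10 genes, coloured by its place, with its height in replicate 1 (x axis) and replicate 2 (y axis), both on log axes of the deposited signal; grey hexagons count all 31612 shared sites. The points lie along the dashed line of equal heights, with Scnn1g's start at 4.46 and 4.59 near the upper end.

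The starts of the sodium channel genes ranged from the strongest of the set to one with nothing listed. Scnn1g, the gamma subunit, had a start peak of height 4.46 in replicate 1 and 4.59 in replicate 2, at percentiles 94 and 95.5 (mean 94.8 ± 1.05, SD, n = 2). Its midpoint lay at -179 bases. In the sequence printed above, counted from its first base, a footprint of replicate 1 at bases 112 to 141 and one of replicate 2 at bases 100 to 143 overlapped, as did those at 28 to 53 and 34 to 55, and at 192 to 207 and 192 to 213. The last of these cover a GC box (GGGCGG, here on the strand of the gene) at bases 201 to 206 in both libraries. A shared site of lower height (1.2 and 1.15) lay at 3.2 kb, over exon 2 and the intron before it.

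Scnn1a, the alpha subunit, had no start peak, yet a site inside the gene was among the strongest of the set. It had a height of 3.68 in replicate 1 and 4.1 in replicate 2, at percentiles 88.8 and 93.5 (mean 91.1 ± 3.3, SD, n = 2), and lay at 10.5 kb across the end of coding exon 2 of 12. Its 200 bases had a CpG ratio of 0.965. Within 250 bases of the outermost annotated start, a wider window, the ratio was 0. Exon 2 ends at base 124 of the sequence printed above. A footprint of replicate 2 covered bases 125 to 145, the first bases of intron 2, including a GC box at 132 to 137. The peak of replicate 1 spanned only the first 120 bases, all within exon 2. Footprints were counted inside peaks only, so none could be counted past that point in replicate 1. The footprints that both libraries placed at this site overlapped at bases 42 to 48 (replicate 1) and 36 to 48 (replicate 2). The window of Scnn1a also held a shared site at -48.9 kb (2.71 and 2.88), one at the start of Ltbr at -6.8 kb (2.86 and 2.21) and one inside Plekhg6 at 57.4 kb (2.54 and 2.41). No annotated transcript of the gene starts at the exon 2 site in this annotation.

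Scnn1b, the beta subunit, lies next to Scnn1g on chromosome 7 and had little accessible chromatin. Its start peak was low (0.805, percentile 16) and was called in replicate 1 only, and in the longer list replicate 2 had one of 0.964. The sole shared site in its window lay at -24.0 kb, with heights of 1.43 and 1.37 (percentiles 49 and 59.4). Of its 4 footprints in replicate 1 and 2 in replicate 2, those at bases 119 to 126 and 124 to 130 and those at 167 to 173 and 167 to 174 overlapped. The density of shared sites was 0.652 per 100 kb, at the 21.5 percentile of protein-coding genes, against 3.73 (66.8) for Scnn1g and 3.22 (60.6) for Scnn1a.

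**Figure D3:**
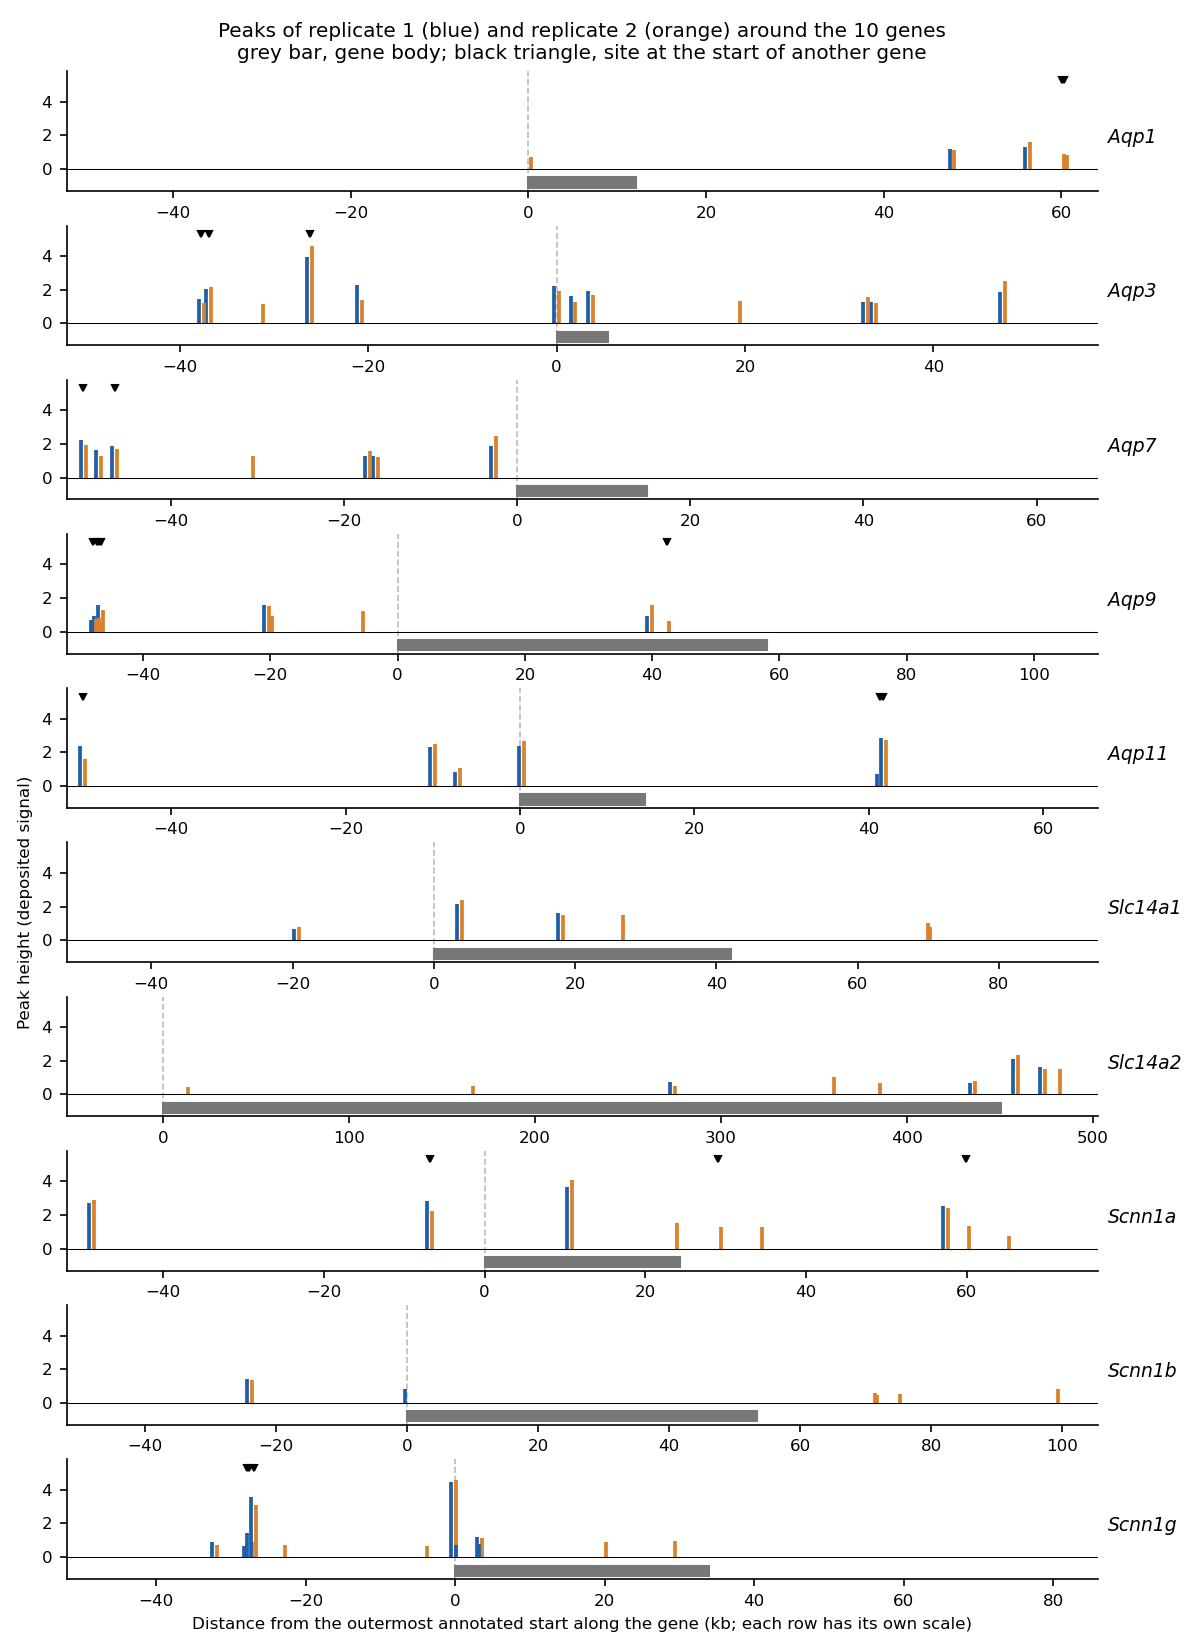
Peak height (deposited signal) in replicate 1 (blue) and replicate 2 (orange) is plotted against distance from the outermost start in kb, 1 row per gene with its own distance scale; grey bars are gene bodies and triangles mark starts of other genes. Scnn1g, Aqp11 and Aqp3 have peaks in both libraries near 0 kb, tallest at Scnn1g. Scnn1a has its tallest at 10.5 kb, and Slc14a2 has low peaks along its body.

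Among the aquaporins, Aqp3, a water and glycerol channel, had the most open neighbourhood. Its start peak had heights of 2.2 and 1.9 (percentiles 69.9 and 73.2, mean 71.6 ± 2.29, SD, n = 2). A further shared site of 1.89 and 1.7 lay at 3.6 kb, over exons 3 and 4, where an internal start is annotated and the lowest FDR was 1.45e-05 and 6.02e-08, and another of 1.64 and 1.29 lay in intron 1 at 1.7 kb. With 10 shared sites of 12, Aqp3 had 9.48 shared sites per 100 kb, at the 96.2 percentile of protein-coding genes. Of these 10, 3 were at starts of neighbours, Nol6 (3.96 and 4.6, the highest in the window) and Ube2r2 (2.02 and 2.17, and 1.46 and 1.21). The Aqp3 promoter holds TATAAA 29 to 24 bases before the start, at bases 129 to 134 of the printed stretch, inside footprints of both libraries at bases 128 to 141 and 126 to 141.

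A TATAAA in the 40 bases before the outermost start was present at 2 of the 10 genes, Aqp3 and Aqp1, and at 2.79% of protein-coding genes. Under a peak of both libraries it lay inside a footprint of both at 20 of 67 genes (29.9%). At Aqp1 it fell 30 to 25 bases before the start, in no footprint counted here. Replicate 1 had no peak of the stricter list at that start, so no footprint could be counted in it. The low peak of replicate 2 (0.714) held none. This search was added after the printed sequences were seen.

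Aqp7, an aquaglyceroporin best known from fat cells, lies beside Aqp3 on the same strand of chromosome 4 and had no peak at a start or inside the gene. Its closest shared site was the printed one at -2.7 kb, with heights of 1.86 and 2.48 (percentiles 62.4 and 81.7). Footprints of replicate 1 at bases 83 to 115 and of replicate 2 at bases 85 to 116 covered nearly the same stretch there. A pair of shared sites followed at -16.4 kb (1.27 and 1.19) and -17.3 kb (1.27 and 1.55). The remaining 3 shared sites of its window lie within Aqp3 or across its start. Of the adipocyte markers, Adipoq, Cidec, Fabp4 and Lep had no start peak and Plin1 (1.08 and 0.929) and Plin4 (1.04 and 1.41) had one in both libraries. Any part of fat cells in the Aqp7 sites was not tested.

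Aqp9, which also conducts glycerol and is best known from liver, had no start peak. The intron 8 site at 39.6 kb had a height of 0.941 in replicate 1 and 1.6 in replicate 2 (percentiles 24.3 and 66.5), and 68.2% of its bases are soft-masked as repeats in the reference. A shared site at -20.6 kb had 1.59 and 1.54. The other 3 shared sites of its window were at the start of Aldh1a2, a retinoic acid synthesising enzyme, the highest with 1.6 and 1.27. None of the 6 hepatocyte markers had a start peak.

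Aqp11, an aquaporin of intracellular membranes, had a start peak of 2.35 and 2.66 (percentiles 72.6 and 83.6, mean 78.1 ± 7.76, SD, n = 2), with 3 footprints in replicate 1 and 4 in replicate 2. Both peaks overlapped exon 1, and that of replicate 1 also reached past the start, whereas that of replicate 2 lay wholly inside the gene. An upstream site at -10.0 kb was as high, with 2.3 and 2.48 (percentiles 71.8 and 81.7), and a lower one stood at -7.2 kb (0.816 and 1.06). The remaining shared sites of its window were the starts of Clns1a (2.86 and 2.75) and Pak1 (2.37 and 1.6).

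Aqp1, the water channel of red cells and capillary endothelium, had a low start peak in replicate 2 only (0.714, percentile 22), and in the longer list replicate 1 had one of 0.612. Its 2 shared sites both lay downstream, at 47.7 kb inside Ghrhr (1.2 and 1.13) and at 56.2 kb (1.33 and 1.63), and neither overlapped a start. Of the endothelial markers, Kdr (0.59 and 0.821), Vwf (2.65 and 1.63) and Egfl7 (0.952 and 0.982) had start peaks in both libraries, while Pecam1, Cdh5, Tek, Tie1 and Emcn had none in either.

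The urea transporters lie side by side on chromosome 18 and differed. Slc14a1 had 2 shared sites in intron 1, at 3.7 kb with heights of 2.13 and 2.37 (percentiles 68.5 and 80.3) and at 18 kb with 1.61 and 1.51 (percentiles 55.5 and 64). The second of these lay within 1000 but not 500 bases of an internal start, so Slc14a1 joined the genes with a start peak at the wider setting. A site over exon 3 had a height of 1.5 in replicate 2, and in replicate 1 it was in the longer list only, at 1.26. Slc14a2, whose body spans 451 kb, had 7 sites inside it, of which 1 was shared (0.68 and 0.777, percentiles 8.76 and 27, intron 13). The other 6 were found in 1 library each, at heights from 0.429 to 1.04, and none lay at a start. Among them, the replicate 1 site at 274.2 kb (0.726) and a replicate 2 site at 274.1 kb (0.491) lay side by side. In the longer list both libraries had a peak over each of these. Slc14a2 had 0.545 shared sites per 100 kb, at the 20.4 percentile, the lowest of the 10 genes, and 2 of its 3 shared sites belong to the body of Slc14a1.

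**Figure D4:**
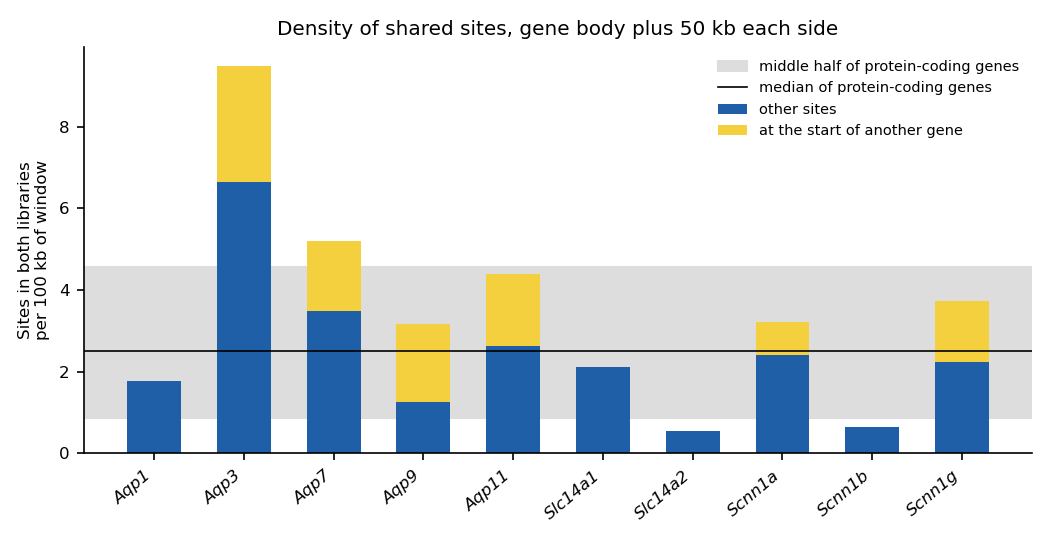
Bars give shared sites per 100 kb of each window (gene body plus 50 kb each side), split into sites at the start of a different gene (yellow) and the rest (blue). The grey band spans the lower (0.857) to upper (4.55) quartile and the line the median (2.5) of protein-coding genes: Aqp3 (9.48) and Aqp7 (5.21) stand above the band, Slc14a2 (0.545) and Scnn1b (0.652) below it.

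Distinct footprints inside peaks of the 10 windows numbered 94 in replicate 1 and 155 in replicate 2. The mean number per peak was 2.19 and 2.37, against 2.59 and 2.48 over the genome. In these means a footprint inside overlapping peaks counts for each of them. At shared sites, 57 of the 91 footprints of replicate 1 (62.6%) overlapped one of replicate 2, against 58% at all shared sites. Most were short, with a median width of 9 bases over all footprints in each library.

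The 200 bases at the centre of each site were searched on both strands for 14 motifs. These were the AP-1 site, with the letters TGAGTCA, the site of GATA factors, spelled as AGATAA, and the steroid receptor core, searched as ACANNNTGT. The grainyhead-like motif was AACNGGTT, the nuclear receptor half-site was AGGTCA, and that of ETS proteins was CCGGAAGT. The GC box was GGGCGG, the KLF motif was CCACCC, the TEAD motif was GGAATG and the forkhead motif was TGTTTAC. The NFAT-type core was TGGAAA and the cyclic AMP response element (CRE) was TGACGTCA, while CTCF and SRF were searched by longer consensus patterns. None of these patterns holds another whole, although overlapping matches can occur. The GC box was found at 37.1% of the 35 shared sites and at 36.8% of all shared sites. KLF was found at 28.6% against 23.8%, the NFAT-type core at 17.1% against 12.7%, TEAD at 11.4% against 8.96%, AP-1 at 2.86% against 6.32%, CRE at 2.86% against 1.55% and the nuclear receptor half-site at 8.57% against 9.44%. The steroid receptor core, bound by the mineralocorticoid receptor that regulates the sodium channel, was present at 1 of the 35, the Aqp11 upstream site, outside a footprint, and at 3.58% of all shared sites. No match was found at the shared sites for GATA, the grainyhead-like motif, ETS, forkhead or SRF, which were present at 4.52%, 1.77%, 3.05%, 2.33% and 0.759% of all shared sites.

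CTCF, the factor that anchors chromatin loops, had an exact match at 2 of the 35 shared sites (5.71%, against 9.76% of all shared sites), the Aqp1 downstream site and the site within Nol6. With 1 mismatch allowed, a search added after the sequences were seen, 11 of the 35 held one (31.4%, against 24.9%). At each of these 11 the match touched a footprint of both libraries, as at 84.4% of such sites over the genome. The footprints that touched these matches were long, with a median of 27 bases in replicate 1 and 32 in replicate 2, where the other footprints at shared sites of the 10 genes had medians of 9.5 and 9. The same held for all shared sites (27 against 10, and 26 against 10), and a longer footprint touches any pattern more often. Of the sequences printed above, those of Scnn1g (bases 117 to 128), Aqp7 (100 to 111), Aqp11 (135 to 146) and Aqp9 (117 to 128) hold a match with 1 mismatch, and that of Aqp1 an exact one (108 to 119). A match is a description of letters and not a site of binding.

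**Figure D5:**
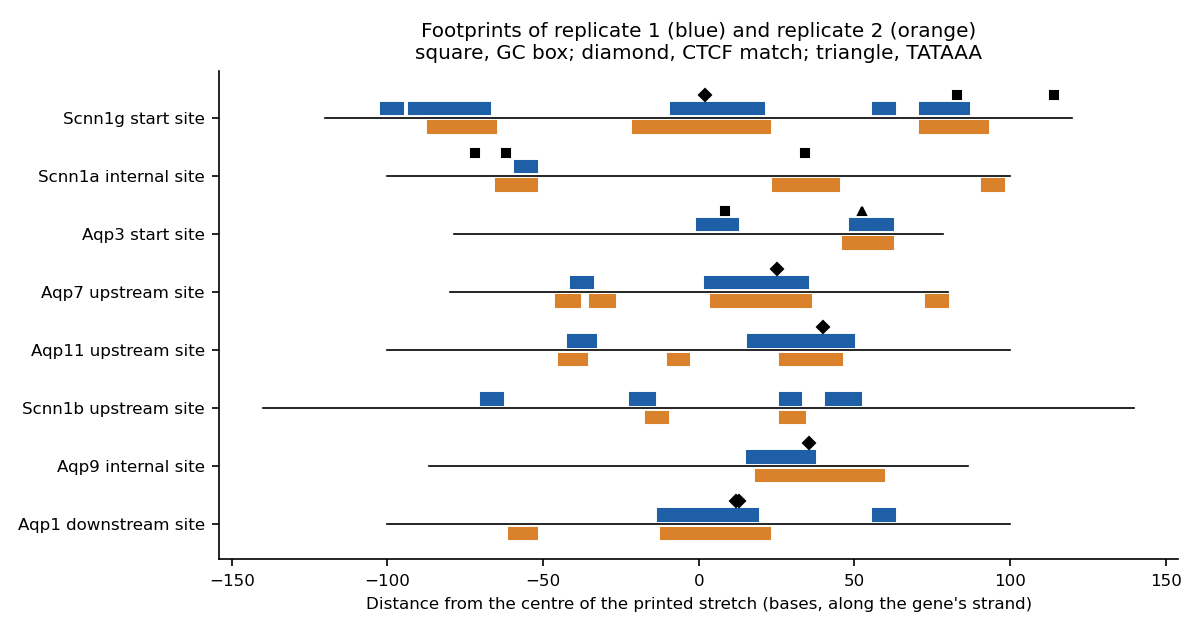
Footprints of replicate 1 (blue, above the line) and replicate 2 (orange, below) are drawn to scale along the 8 printed stretches, in bases from the centre, with GC boxes (squares), CTCF matches with at most 1 mismatch (diamonds) and TATAAA (triangle). The footprints at diamonds reach 44 bases, and in each of these 5 stretches both libraries have one there.

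The other genes of these pathways divided by family. None of 7 further aquaporins (Mip, Aqp2, Aqp4, Aqp5, Aqp6, Aqp8 and Aqp12) carried a start peak in each library, whereas Aqp5 (0.813) and Aqp8 (0.491) had one in replicate 2 only. In the longer list these 2 of the 7 had one in both. Of 17 genes listed as sodium channel regulators, 14 had one (Scnn1d was listed but not found). The 17 include the related channels Asic1 (1.78 and 1.07, counted among the 14) and Asic2 (0.556, replicate 1 only), which are not regulators. Of 8 genes of the sodium pump and its FXYD partners, 7 had one. Of 6 genes of vasopressin and osmotic response, 4 had one, all of them genes of the osmotic response. The vasopressin receptor Avpr1a had a start peak in replicate 2 only (0.393). Together, 25 of 38 (65.8%) carried one in each library, against 56.3% of protein-coding genes. Among the highest by mean percentile were Atp1b3 (7.58 and 7.26), a subunit of the sodium pump, Nfat5 (6.9 and 7.51), the transcription factor of the hypertonic response, Oxsr1 (6.78 and 7.23), a kinase downstream of WNK kinases, Usp2 (5.96 and 6.59), a deubiquitinase that acts on the sodium channel, and Sgk1 (5.37 and 5.15), the aldosterone-induced kinase that keeps the channel at the membrane. Nr3c2, the mineralocorticoid receptor (3.92 and 4.44), and Prss8, a protease that activates the channel (1.93 and 1.7), had start peaks in both libraries as well. Hsd11b2, which shields that receptor from glucocorticoids, had a start peak in replicate 1 only (1.2), and the vasopressin receptor Avpr2 had none. Nr3c2, Prss8, Hsd11b2, Avpr2, Avpr1a, Asic1 and Asic2 were chosen after their values were seen.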

How the data were processed

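DNase-seq peaks, footprints and per-base FDR values were used as deposited. Per the deposited text, the authors made each list per library from filtered alignments to mm10 with a mappability reference, without pooling; the names of the callers are not given in the sources used. The deposited peak height is a signal of unstated scale, and read depth is unknown. The authors' FDR file, in effect a list of adjusted p-values, runs up to 0.05. Each footprint carries the same deposited value, 0.01, of which it is not stated whether it is a p-value or an FDR. Reads of the CAST/EiJ genome were placed on a C57BL/6J reference, and loss of such reads was not tested.

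The list with fewer peaks of each library was the main one. Windows spanned the gene body plus 50 kb, start windows 500 bases each side, and 1 base of overlap joined peaks. Footprints were counted wholly inside peaks. Sequence came from GRCm38.p6, whose coordinates are those of mm10, and genes from GENCODE M21. Overlaps were tested on simulated peaks (Python 3.11.15, numpy 2.4.6). All 10 genes were named, with the highest shared site of each class and neighbours with a start peak; of other pathway genes, the 6 highest by mean percentile, not all of which are reported here. The genes and lists were chosen with earlier results of these data known. Alternatives were another list, height limits, windows, overlap rules and each library alone.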

Additional observations from a re-analysis of the deposited data

How the results depend on the processing

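Of 36 values under alternative settings, 21 stayed within 1.5 times the reported count. Genes with a start peak in both libraries numbered 3 with the stronger 50% of peaks, the 30000 highest peaks, the 250 base window and the outermost start, 4 with 1000 bases (Slc14a1 added), 2 with an overlap of at least 50% of each peak (Aqp11 lost) and 6 in the longer list. With 1 library left out the count was 4 either way. The 35 shared sites became 65 in the longer list, 22 with the stronger 50% of peaks, 10 in gene bodies only and 15 with a 10 kb flank, and a single library held 41 (replicate 1) or 65 (replicate 2) sites. The 71 sites of either library became 121, 35, 25 and 34 under the same settings, 43 with the 30000 highest peaks, and 41 to 65 in a single library. Footprints changed to 144 in replicate 1 with the longer list, and to 22 and 44 in gene bodies only. Window and list length enter these counts by construction. No paired analysis was possible because there was 1 group. Depth is unknown, so a start without a listed stretch shows only that none passed the authors' limit. Absent peaks of 1 library often lay in its longer list (3 of 6 and 15 of 30), and sites called in 1 library alone had low median heights (0.731 in replicate 1 and 0.826 in replicate 2).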
